A study of Drosophila melanogaster with 15 samples.

Results

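The genes described here are 141 autosomal genes whose mRNA was at least 1.5-fold higher in SL2 cells after MSL2 RNAi than after control RNAi, and which did not reach a 1.5-fold increase after CLAMP RNAi. They were picked from 6058 genes of chromosome arms 2L, 2R, 3L and 3R with a mean of at least 1 RPKM (reads per kilobase of transcript, scaled to the library total) over the libraries. The series holds 15 samples of Drosophila melanogaster cell lines, of which 3 are mRNA libraries of SL2 cells, a male line of embryonic origin, collected after 6 days of RNAi treatment at 25 °C. Their groups are MSL2 RNAi, CLAMP RNAi and control RNAi, with 1 library each, and the labels do not name the target of the control RNAi. The other 12 samples, CLAMP immunoprecipitations and inputs of SL2 and Kc cells, were not analysed here. All values come from a single established line, so they do not show the spread between cultures or between animals.

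MSL2 is the protein that restricts the male-specific lethal (MSL) complex to males. The complex works with the roX noncoding RNAs and acetylates histone H4 along the male X chromosome, where transcription is raised to match the dosage of females. CLAMP is a zinc finger protein that binds GA-rich sequences and helps to bring the complex to the X. Autosomal genes are not the main targets of the complex, and the genes below were selected for their behaviour in these libraries and not for any known link to it.

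Library totals were 67844405 for MSL2 RNAi, 68301197 for CLAMP RNAi and 68036170 for control RNAi. The msl-2 transcript (CG3241, arm 2L) had 1347 reads after MSL2 RNAi, 5085 after CLAMP RNAi and 5192 in control. Clamp (CG1832, arm 2L) had 12031, 3590 and 11947 reads in the same libraries. Each target was therefore low in its own library and close to control in the other knockdown. With 1 library per group there is no replicate check and no p-value, and the intervals below cover counting error of reads only. Markers of blood cells, the cell type that SL2 resembles, were present for 12 of 12 genes at a mean of at least 1 RPKM, with a summed level of 5791 RPKM after MSL2 RNAi, 7299 after CLAMP RNAi and 5074 in control. Their median log2 ratio after MSL2 RNAi was 0.01. Among them Hml and Pxn were at least 1.5-fold higher in both knockdowns and He was at least 1.5-fold lower in both, and the part of these shifts in the values below was not tested. In such bulk RNA, more cells expressing a gene and more RNA per cell cannot be told apart.

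Of the 6058 autosomal genes, 178 or 2.94% were at least 1.5-fold higher after MSL2 RNAi. Of these, 24 were also at least 1.5-fold higher after CLAMP RNAi, 4 were noncoding genes with CR identifiers, and 9 were ribosomal protein, cytochrome P450 or other genes that the selection leaves out by name. The remaining 141 are the members. A further 4 genes met the ratios but have no assigned arm and were not counted. Among X-linked genes, 6 of 1289 or 0.465% were at least 1.5-fold higher after MSL2 RNAi. The median log2 ratio was −0.33 for X-linked genes and 0.03 for autosomal genes. Counted from the X median, 44 X-linked genes or 3.41% lay as far up as the 2.94% of autosomal genes did from theirs.

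**Figure D1:**
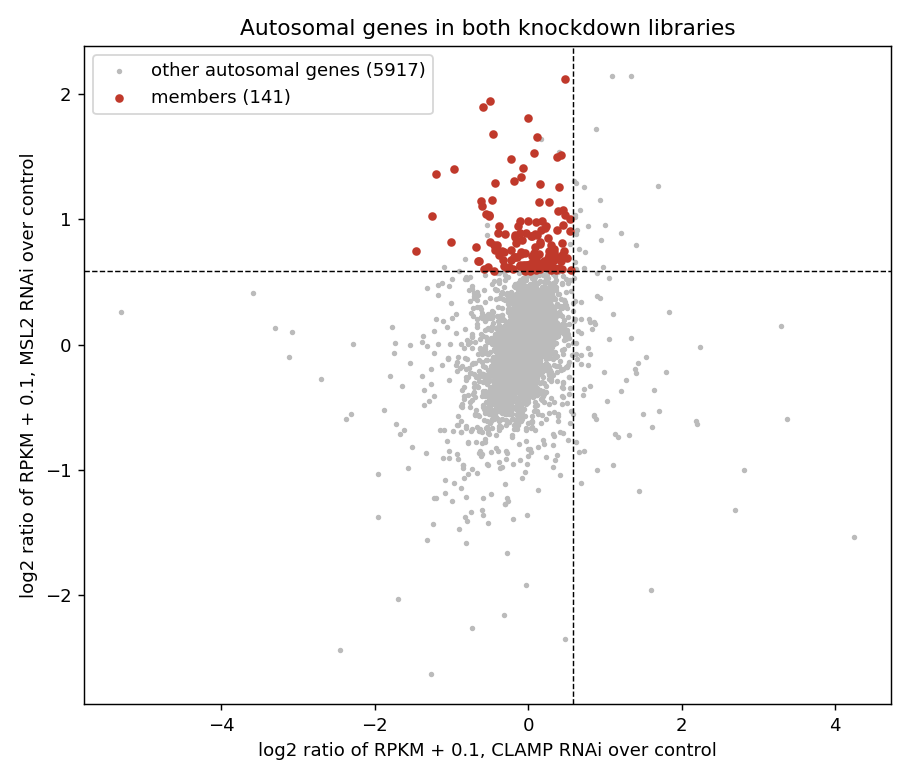
Each point is an autosomal gene with a mean of at least 1 RPKM, by its log2 ratio of RPKM plus 0.1 for MSL2 RNAi over control (vertical) and for CLAMP RNAi over control (horizontal). The 141 members, in red, fill the upper left part by construction, above and left of the dashed 1.5-fold lines, and reach 2.12 on the vertical axis.

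The selection used both ratios to control, so the ratios describe the members and test nothing about them. Ratios are log2 of RPKM plus 0.1, and the added 0.1 shrinks the ratios of weakly expressed genes. For MSL2 RNAi over control the members had a median of 0.75 (95% order-statistic interval over genes 0.72 to 0.81), with a range of 0.59 to 2.12. After CLAMP RNAi the median was 0.03 (−0.05 to 0.10), with a range of −1.46 to 0.55. Over all 6058 autosomal genes the medians were 0.03 and −0.05. At least 2-fold higher after MSL2 RNAi were 31 members, beside 0.726% of all autosomal genes, and the other 110 lay between 1.5-fold and 2-fold. Both comparisons share the control library.

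By the selection itself, the MSL2 RNAi library had the highest RPKM of the 3 libraries for 141 of 141 members. The members took 387042 reads after MSL2 RNAi (0.57% of the library total), 229521 after CLAMP RNAi (0.336%) and 228579 in control (0.336%). Set directly against CLAMP RNAi, the MSL2 RNAi library was at least 1.5-fold higher for 98 members, beside 4.82% of all autosomal genes, a contrast that the selection also constrains. The exact 95% counting interval of the read ratio of MSL2 RNAi to control lay above 1 for 140 members and above 1.5 for 75. The exception was CG13511, with 34 reads after MSL2 RNAi, 21 after CLAMP RNAi and 21 in control. For 7 members the interval of MSL2 RNAi to CLAMP RNAi included 1, and for CG4733 the reads were 740, 723 and 485.

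The members nearest to the MSL2 RNAi limit were puml (0.59), CG3397 (0.59) and CG11275 (0.59). Just outside it were CG7381 (0.58), CG11629 (0.58) and the trehalose transporter gene Tret1-1 (0.58). At the CLAMP RNAi limit, the outermost members were CG4733 (0.55), CG31051 (0.54) and the transcription factor gene sage (0.54), while CG5984 (0.60), CG13074 (0.60) and CG30184 (0.61) fell just beyond. No gap in the values separates members from non-members.

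Members were mostly genes of low expression. The median member had a mean of 3.14 RPKM (interval over genes 2.33 to 3.84), against 21.6 RPKM (20.8 to 22.3) for all autosomal genes tested. Under 5 RPKM were 94 of the 141, or 66.7%, whereas 13.7% of all tested genes were that low. The share of tested genes that were members was 15.3% between 1 and 2 RPKM (exact Clopper-Pearson 95% interval 11.5 to 19.8), 8.91% between 2 and 5 RPKM (6.6 to 11.7) and 0.899% at 5 RPKM or more (0.661 to 1.19). Because the level filter averages over the libraries, 14 members passed it with less than 1 RPKM in both the CLAMP RNAi and control libraries, and 105 members had at least 1 RPKM in every library.

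The CLAMP RNAi library enters neither side of the MSL2 RNAi ratio and gives a second reading of level. Among autosomal genes of 1 to 2 RPKM in that library, 17.2% were at least 1.5-fold higher and 14.1% at least 1.5-fold lower after MSL2 RNAi. At 2 to 5 RPKM the shares were 9.88% higher and 6.98% lower, and at 20 to 100 RPKM 0.744% higher and 1.37% lower. Changes of this size were thus more frequent among low genes in both directions. At least 1.5-fold lower after MSL2 RNAi were 3.19% of all autosomal genes. By the mean over the libraries, 41 genes under 5 RPKM were 1.5-fold lower after MSL2 RNAi without being so after CLAMP RNAi, beside the 94 members of that level. At 5 RPKM or more the numbers were 84 lowered genes and 47 members. The lowered count leaves out genes that were also 1.5-fold lower after CLAMP RNAi, as were 15.8% of autosomal genes under 5 RPKM. The member rule leaves out genes that were 1.5-fold higher after CLAMP RNAi instead. These numbers therefore do not compare the 2 directions.

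**Figure D2:**
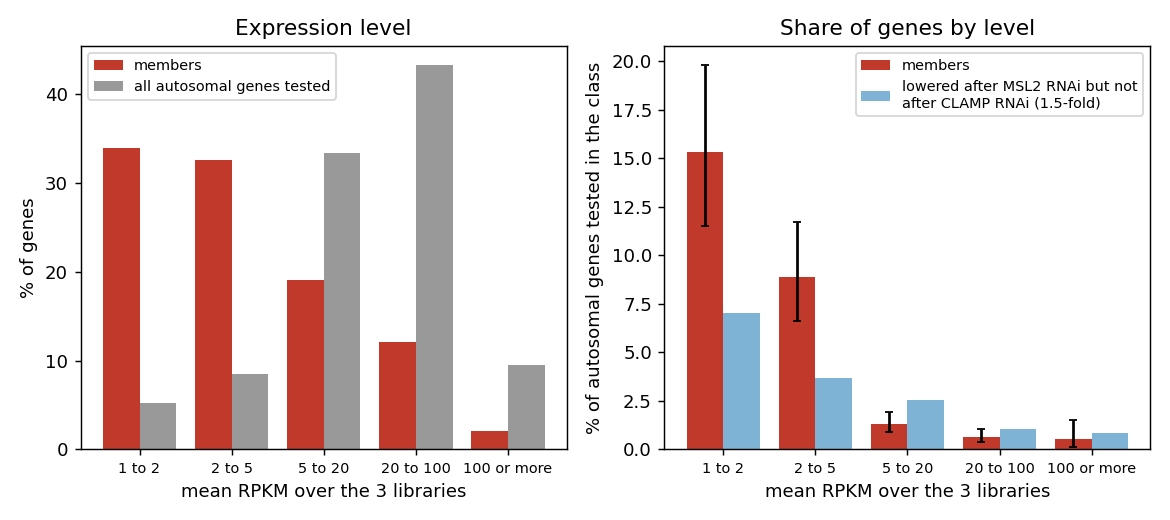
Left, the percentage of the 141 members and of the 6058 autosomal genes tested in each class of mean RPKM, and right, the percentage of tested genes in each class that were members (red, with exact 95% binomial intervals) or that were 1.5-fold lower after MSL2 RNAi without being so after CLAMP RNAi (blue, with no gene left out by name). Members make up 15.3% of the lowest class and 0.521% of the highest.

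The highest ratio was that of CG17706, which the current annotation places in a pseudogene on 2R, with 74 reads after MSL2 RNAi, 22 after CLAMP RNAi and 15 in control. Its read ratio to control was 4.95 (exact 95% counting interval 2.81 to 9.28). Nazo, an antiviral gene, had 154, 25 and 37 reads, a ratio of 4.17 (2.90 to 6.15). The immunoglobulin family gene dpr17 rested on more reads, 1622 after MSL2 RNAi, 272 after CLAMP RNAi and 420 in control, with a ratio of 3.87 (3.48 to 4.32). All of these were low in the CLAMP RNAi and control libraries, and the selection fixed that they were highest after MSL2 RNAi. CG17706 (0.83 and 0.57 RPKM) and Nazo (0.59 and 0.87) were under 1 RPKM in both. They therefore passed the level filter only through the MSL2 RNAi library.

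Most of the next places were taken by genes of fewer than 400 reads in both other libraries, apart from CG8620, CG34437 and Marf1, which are described below. CG31601 had 414 reads after MSL2 RNAi, 110 after CLAMP RNAi and 110 in control. The chitinase gene Cht2 had 462, 97 and 137 reads, and the cuticle protein gene Cpr64Ac 105, 36 and 34. The oxidoreductase gene ninaG had 1007, 302 and 353 reads. Cht2 and Cpr64Ac did not exceed 4.16 RPKM in any library, so both were weakly expressed even where they were highest. CG31601 and Cpr64Ac were under 1 RPKM in both other libraries and so passed the level filter only through the MSL2 RNAi library.

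Among the 47 members of at least 5 RPKM, 8 were at least 2-fold higher after MSL2 RNAi. CG8620 led, with 34.6 RPKM after MSL2 RNAi, 11.8 after CLAMP RNAi and 10.9 in control (log2 ratio 1.66 over control). CG34437 had 31.5, 14.4 and 11.1 RPKM, a read ratio to control of 2.84 (2.60 to 3.11). Marf1, which encodes an RNA-binding regulator of mRNA stability in the female germline, had 10.6, 3.77 and 3.95 RPKM (log2 ratio 1.41). For CG8620 and Marf1, CLAMP RNAi and control differed by less than 1.2-fold.

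CG3788 had 10.7 RPKM after MSL2 RNAi, 1.99 after CLAMP RNAi and 3.98 in control, so the knockdowns lay on opposite sides of control. CG30339 and CG30340, neighbours on 2R, had 95.5 and 41.3 RPKM after MSL2 RNAi, 30.9 and 14.1 after CLAMP RNAi, and 42.9 and 20.2 in control. Their log2 ratios were 1.15 and 1.03 after MSL2 RNAi and −0.47 and −0.52 after CLAMP RNAi. The 2 genes lie side by side with similar read numbers, and reads of overlapping genes, antisense partners or near copies cannot be told apart here, since the use of strand is not stated. CG5080 (1.10), CG6330 (1.07), CG3348 (0.99), Slc45-1 (0.89), Arc1 (0.89) and CG18528 (0.87) completed the 12 highest of this level.

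**Figure D3:**
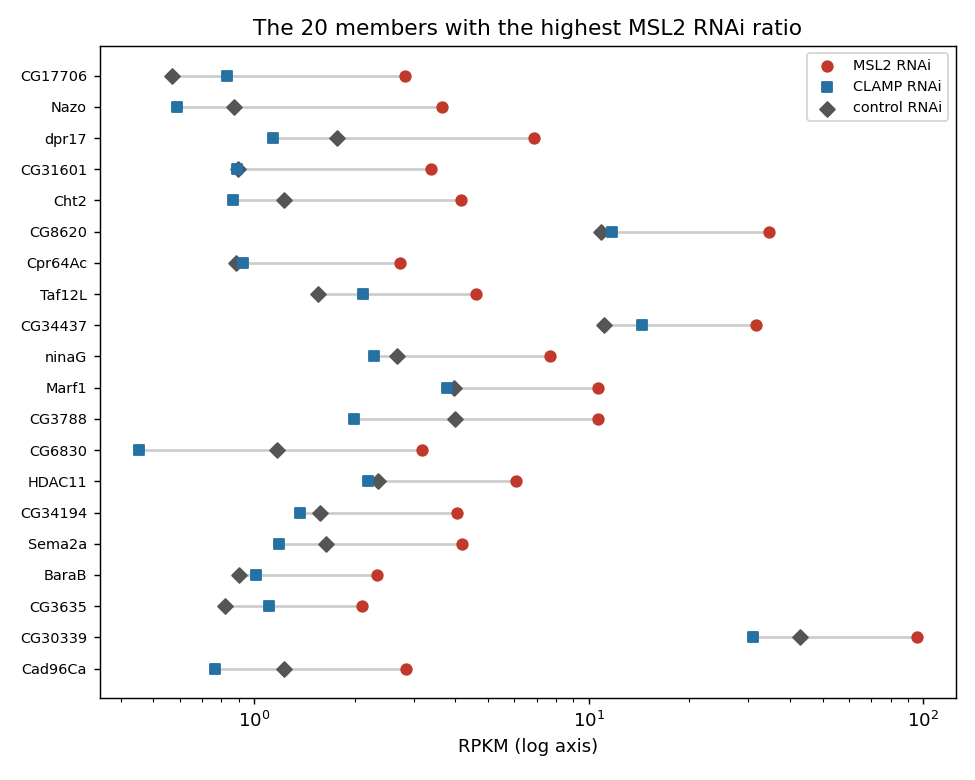
RPKM on a log axis for the 20 members with the highest ratio of MSL2 RNAi to control, in each of the 3 libraries (red circles MSL2 RNAi, blue squares CLAMP RNAi, grey diamonds control RNAi, 1 library each). The red point lies to the right of both others for 20 of 20 genes, as the selection requires. The red points of CG8620, CG34437 and CG30339 lie above 30 RPKM.

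The most abundant members gave the narrowest counting intervals and modest ratios. Arc1, which encodes a retrovirus-like capsid protein that carries mRNA between cells, had 46989 reads after MSL2 RNAi, 27334 after CLAMP RNAi and 25497 in control. Its read ratio to control was 1.85 (1.82 to 1.88). The splicing factor gene Sf3b3 had 69081, 50259 and 44781 reads, a ratio of 1.55 (1.53 to 1.57). The transporter gene MFS3 had 31958, 21487 and 19379 reads, a ratio of 1.65 (1.62 to 1.68). In each of these the CLAMP RNAi library lay slightly above control, at log2 ratios of 0.09, 0.16 and 0.14.

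The nucleotide-hydrolysing enzyme gene NTPase (91.2 RPKM after MSL2 RNAi, 56.5 after CLAMP RNAi, 59.3 in control), CG3348 (95.8, 44.7 and 48.3) and the glycosyltransferase gene Ugt302C1 (120 RPKM, 55.7 and 72.8) were the other abundant members beside FeCH and Srg3, which are given below. Counting error is small against these differences. Differences between separate cultures were not measured.

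In the CLAMP RNAi library, 67 members lay below control and 74 above. Within 1.2-fold of control were 73 members, 34 were between 1.2-fold and 1.5-fold higher, 23 were between 1.2-fold and 1.5-fold lower, and 11 were at least 1.5-fold lower. Over all autosomal genes 3.91% were at least 1.5-fold lower after CLAMP RNAi, and 15.8% of those under 5 RPKM. Of the 94 members under 5 RPKM, 6 were. The selection set an upper limit in this contrast, so nothing follows from these shares.

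The 11 members with lower values include genes of clear read numbers. The methuselah-like receptor gene mthl2 had 678 reads after MSL2 RNAi, 137 after CLAMP RNAi and 400 in control. The G protein subunit gene Ggamma30A had 482, 92 and 232 reads, and CG6830 600, 86 and 222. The clotting protein gene fon had 2366, 661 and 1341 reads, and the aldehyde oxidase gene AOX1 18537, 6735 and 10796. For AOX1 the read ratio to control was 1.72 (1.68 to 1.76) after MSL2 RNAi and 0.621 (0.603 to 0.641) after CLAMP RNAi. The other members of this kind were CG3788, yellow-f2, which encodes a dopachrome-converting enzyme of the melanin pathway, Cdk5alpha, the receptor tyrosine kinase gene Cad96Ca, CG5080 and dpr17.

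Several members have like annotations, and the following groups were put together after their values had been seen. Group sizes therefore carry no weight of their own. A pair of members, FeCH and Urod, encode enzymes of heme synthesis, ferrochelatase and uroporphyrinogen decarboxylase. FeCH had 119 RPKM after MSL2 RNAi, 78.4 after CLAMP RNAi and 74.9 in control, and Urod had 58.3, 43.1 and 38.0. Further genes of the pathway were set beside them. Alas, which encodes the first and rate-limiting enzyme, stood just under the limit with 111 RPKM after MSL2 RNAi, 80.3 after CLAMP RNAi and 75.1 in control (log2 ratio 0.56 over control). Pbgs (0.28) and Coprox (0.23) were smaller, and Ppox was at 0.00. The X-linked Uros1, which is no member, was at −0.37, beside a median of −0.33 for X-linked genes.

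Another pair, Nazo and Srg3, is known from the antiviral response that runs through the receptor Sting and the transcription factor Relish. Srg3 had 114 RPKM after MSL2 RNAi, 73.2 after CLAMP RNAi and 69.3 in control (log2 ratio 0.72). Nazo passed the level filter only through the MSL2 RNAi library. Of the genes above them, Sting, Rel and IKKbeta did not show a comparable difference in mRNA, and the activity of their proteins was not measured. Sting had 2167 reads after MSL2 RNAi, 2547 after CLAMP RNAi and 2241 in control, a log2 ratio of −0.04 after MSL2 RNAi. Rel was at −0.12 and the kinase gene IKKbeta at −0.11. The sensor genes cGlr1 and cGlr2 and the target Srg1 had a mean below 1 RPKM. Of these, cGlr2 had 93 reads after MSL2 RNAi, 48 after CLAMP RNAi and 64 in control. Its read ratio to control was 1.46 (1.05 to 2.04). The other sensor gene, cGlr1, had 17, 19 and 25 reads.

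**Figure D4:**
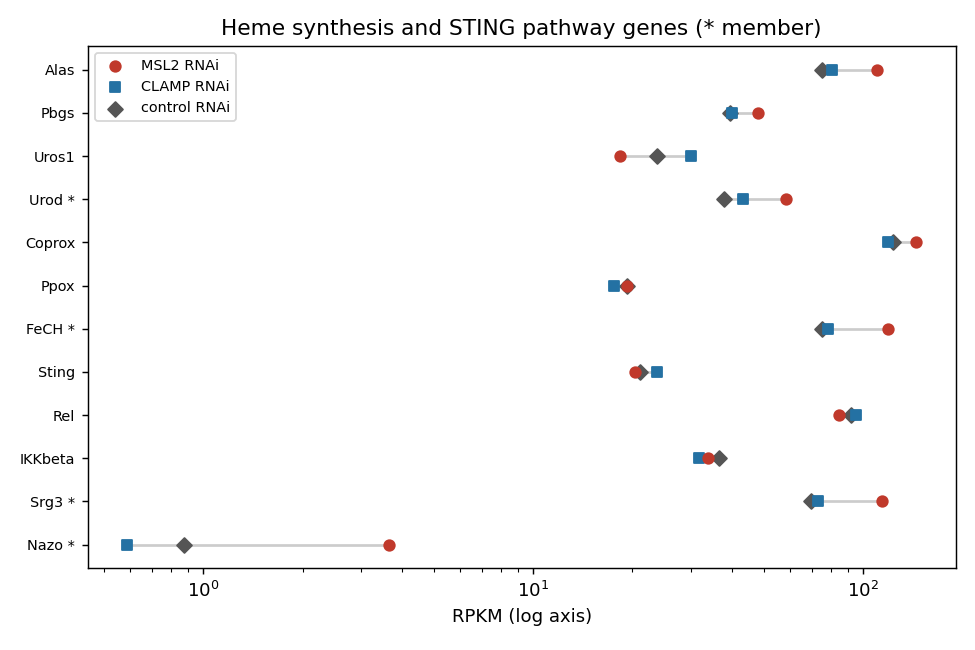
RPKM on a log axis of the named heme synthesis genes (Alas to FeCH) and of STING pathway genes (Sting to Nazo) with a mean of at least 1 RPKM, in each of the 3 libraries (red circles MSL2 RNAi, blue squares CLAMP RNAi, grey diamonds control RNAi, 1 library each). Asterisks mark members, and the red points of Uros1, Sting and Rel lie left of both others.

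A further group consists of 7 paralogues of housekeeping genes. These are ATPsynbetaL, Cyt-c1L, Taf12L, gNacalpha, eEF1alpha2, SkpB and Trf4-2, which resemble genes of the ATP synthase, the respiratory chain, the TFIID transcription factor, the nascent polypeptide complex, translation elongation, ubiquitin ligases and RNA polyadenylation. Their log2 ratios after MSL2 RNAi ranged from 0.66 to 1.51. Taf12L had 184 reads after MSL2 RNAi, 85 after CLAMP RNAi and 62 in control, and gNacalpha had 286, 154 and 125. SkpB had 440, 246 and 263 reads, and ATPsynbetaL, the most abundant of them, 1561, 1181 and 931.

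Their widely expressed counterparts are not members, so the selection largely fixed that their ratios after MSL2 RNAi are lower, and the values are given as a description only. Taf12 was at 0.25, Nacalpha at 0.12, Cyt-c1 at 0.02 and eEF1alpha1 at 0.28. ATPsynbeta, on chromosome 4, was at −0.21. The X-linked SkpA and Trf4-1 were at −0.35 and −0.46, beside a median of −0.33 for X-linked genes. The counterparts are far more abundant. Nacalpha had 98915 reads after MSL2 RNAi and eEF1alpha1 had 1555360 in the same library, where gNacalpha had 286 and eEF1alpha2 had 337. Reads placed on the wrong copy cannot be recognised in the deposited counts, and their part in the ratios was not tested. Markers of the testis, where paralogues of this kind are often expressed, were below 1 RPKM for 6 of 6 genes, with a summed level of 0.123 RPKM after MSL2 RNAi, 0.106 after CLAMP RNAi and 0.0666 in control, and 4 of the 6 had no read in control.

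**Figure D5:**
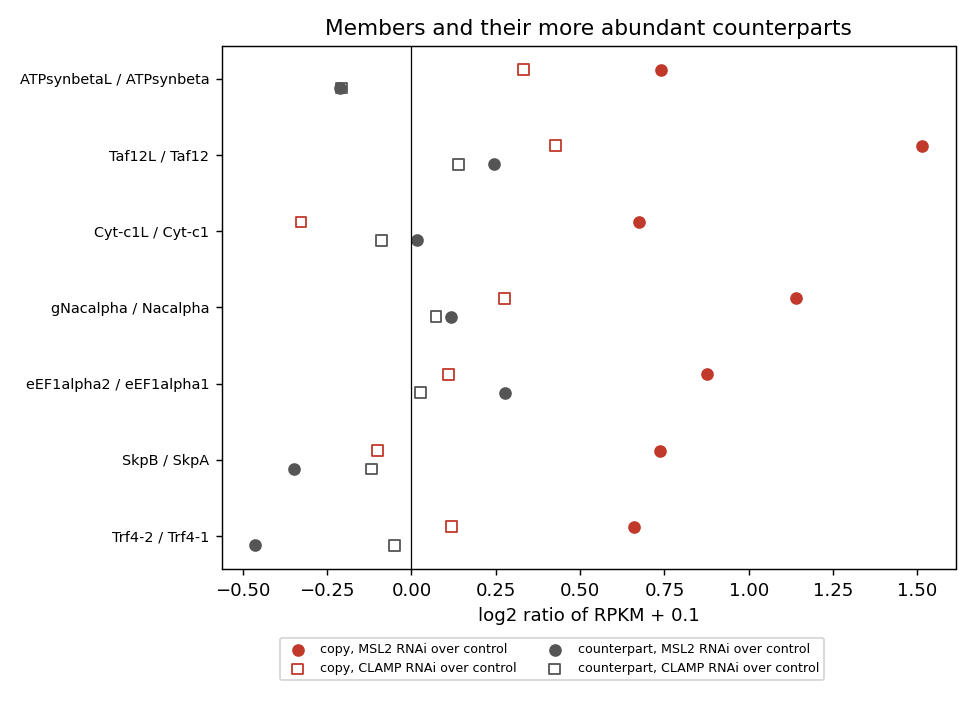
Log2 ratio of RPKM plus 0.1 to control for 7 members (red) and their more abundant counterparts (grey), after MSL2 RNAi (filled circles) and CLAMP RNAi (open squares), 1 library each. The filled red circles lie between 0.66 and 1.51 and the filled grey ones between −0.46 and 0.28, an order that the selection of the red genes on this ratio largely fixed.

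Members with known roles in neurons were the active zone gene brp, the synaptic vesicle gene Syngr, the kinase activator gene Cdk5alpha, the guidance gene Sema2a, the adhesion genes dpr17 and Nrt, the neuropeptide gene Orcokinin and Arc1. Sema2a had 998 reads after MSL2 RNAi, 287 after CLAMP RNAi and 395 in control, and Nrt had 2952, 1667 and 1777. The active zone gene brp had 3437, 2147 and 2202 reads, a log2 ratio of 0.64. Members with roles in vision include inaD, Ggamma30A, ninaG and Cralbp, of which Cralbp had 2466, 1527 and 1588 reads. Of 8 neuronal markers, only elav, brp and Syx1A reached a mean of 1 RPKM, and the summed level of the markers was 79.3 RPKM after MSL2 RNAi, 92.7 after CLAMP RNAi and 85.5 in control. Syx1A alone made up 66.2, 80.5 and 72.3 RPKM of these sums, so they mostly give the level of 1 gene. The X-linked elav was lower after MSL2 RNAi, with 1063 reads after MSL2 RNAi, 1453 after CLAMP RNAi and 1626 in control. Syt1, para, fne, Rdl and nSyb had at most 10 reads in any library.

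Cilium genes among the members were low in level. BBS8, of the BBSome complex, had 346 reads after MSL2 RNAi, 226 after CLAMP RNAi and 207 in control. The intraflagellar transport gene Oseg5 had 283, 224 and 171 reads, and DZIP1, of the ciliary transition zone, had 247, 134 and 129. TTLL6B, of the tubulin-modifying ligases, had 497, 440 and 303 reads, so that it was high in both knockdowns relative to control.

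Enzymes of carbohydrate and lipid handling spanned a wide range of levels. Glyp, the glycogen phosphorylase gene, had 50.0 RPKM after MSL2 RNAi, 26.0 after CLAMP RNAi and 32.4 in control. The glycerol kinase gene Gk2 had 13.2, 9.18 and 8.53 RPKM, and the sorbitol dehydrogenase gene Sodh2 23.8, 17.2 and 14.9. The hydrolase gene puml had 75.4, 50.9 and 50.1 RPKM. The phospholipase gene sPLA2 was low, with 2.47, 1.72 and 1.22 RPKM. With AOX1 and Ugt302C1, given above, the group has 7 members. After CLAMP RNAi Glyp, Ugt302C1 and AOX1 lay below control by more than 1.2-fold, at log2 ratios of −0.31, −0.39 and −0.68. By contrast, sPLA2 lay above control by more than 1.2-fold, at 0.46. Sodh2, Gk2 and puml were within 1.2-fold, at 0.21, 0.10 and 0.02.

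A further group holds 6 named transporter genes, and members known only by a CG identifier were not placed in it. MFS3 was the most abundant, and Slc45-1, of the sucrose transporter family, had 28.2 RPKM after MSL2 RNAi, 14.9 after CLAMP RNAi and 15.2 in control. Mdr49, an ABC transporter gene, had 6.03, 2.88 and 3.24 RPKM, and the monocarboxylate transporter-like kar had 3.47, 2.07 and 1.75. The choline transporter-like gene Ctl1 (log2 ratio 0.60) and the ammonium transporter gene Amt (0.73) were the others. These 6 lay within 1.2-fold of control after CLAMP RNAi, at log2 ratios of −0.19 to 0.23, as did 73 of all 141 members. The group was picked by hand, so nothing follows from this for transporters in general.

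Several members encode regulators of transcription and RNA. HDAC11, a histone deacetylase gene, had 466 reads after MSL2 RNAi, 169 after CLAMP RNAi and 180 in control, a read ratio to control of 2.60 (2.18 to 3.10). The salivary gland transcription factor gene sage had 285, 206 and 139 reads, so that the CLAMP RNAi library lay between the others. Winged eye, wge, which encodes a chromatin protein, had 14356, 10416 and 9352 reads, a ratio of 1.54. Coop, a corepressor gene of the Wingless pathway, had 3597, 2307 and 2316 reads, and the RNA helicase gene Mov10 963, 758 and 619. HDAC11 and Coop were thus near control after CLAMP RNAi, whereas sage and Mov10 lay above it.

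Membrane and secreted proteins made up another set with no shared pathway. The apical polarity gene crb had 1487 reads after MSL2 RNAi, 742 after CLAMP RNAi and 829 in control. The extracellular matrix gene conv, needed for tube formation in the trachea, had 1424, 635 and 919 reads. The serine protease gene ndl, which acts in the egg in dorsoventral patterning, had 1224, 659 and 736. The values after CLAMP RNAi were at or below control in all of these, most clearly in conv at a log2 ratio of −0.52. The adenylyl cyclase gene Ac76E had 529, 307 and 331 reads, and the channel genes ppk13 and ppk29 had 180 and 354 after MSL2 RNAi, 109 and 259 after CLAMP RNAi, and 81 and 211 in control. Whamy, an activator gene of actin assembly, had 1083, 700 and 688 reads.

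Other pathways were described through lists of genes. In 22 lists with 256 genes, covering cell type markers, glycolysis, hypoxia, heat shock, ecdysone, cell death and JNK signalling, amino acid stress, redox, matrix, cytoskeleton, sex differentiation, cell cycle, immunity, lipids, MAP kinase signalling and the MSL complex, 191 genes reached a mean of 1 RPKM, 169 of them autosomal. Of these, 4 were at least 1.5-fold higher after MSL2 RNAi, beside the 2.94% of autosomal genes, namely Hml, Pxn, PGRP-SD and brp. The first 3 were higher after CLAMP RNAi too, at log2 ratios of 1.00, 1.40 and 0.95, so that brp was the only member. At least 1.5-fold lower after MSL2 RNAi were 13 of the 191 genes, msl-2 itself among them. Autosomal were 10 of the 13, out of the 169 autosomal genes listed, beside 3.19% of all autosomal genes. The others, trol, Agpat1 and elav, lie on the X, where the middle gene was already at −0.33. The 13 include the cell death genes rpr and hid, at log2 ratios of −0.95 and −0.92. After CLAMP RNAi these genes were at −0.54 and 0.35. They were the only 2 lowered among 14 tested genes of the cell death and JNK list, whose median after MSL2 RNAi was −0.01. The immunity list held 3 of the 13, CecA1, PGRP-LB and Mtk. The 13 listed genes of glycolysis and gluconeogenesis, which do not include Ldh and Pfk, had a median of 0.22 for MSL2 RNAi over control, and 0 of them reached 1.5-fold.

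The members were spread over the arms. Arm 3R held 51, or 2.82% of its tested genes (exact 95% interval 2.11 to 3.69), 2R held 35 (2.31%, 1.62 to 3.20), 2L held 31 (2.35%, 1.60 to 3.32) and 3L held 24 (1.69%, 1.09 to 2.51). These intervals overlap. Divided into 20 stretches of equal gene number in annotation order, each arm had between 0 and 8 members per stretch, with 8 and 7 in the fullest 2, both on 3R, and none in 15 stretches. Among tested genes, 10 members or 7.09% had another member as neighbour, beside 4.64% of all tested genes. The 5 pairs were CG30340 and CG30339, Gk2 and Cht2, corn and CG8620, CG12224 and CG3397, and CG18528 and DZIP1. The 271 neighbours that were no members had a median log2 ratio after MSL2 RNAi of 0.03 (0.01 to 0.06), against 0.03 for all autosomal genes.

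The median transcript of the members had 1650 bases (interval 1458 to 1952), against 1850 (1818 to 1888) over all autosomal genes and 1528 (1446 to 1620) over those under 5 RPKM. Of the 141 members, 139 are annotated as protein coding, and 65 are given here with no name beyond a CG identifier. These 65 include 6 members matched by synonym only, which keep their own identifier. The annotation places some of the 6 in named genes, such as CG30475 in aPKC and CG31082 in scrib. Several transcripts of at least 1 RPKM were listed for 38 members, and in 38 of these every such transcript was at least 1.5-fold higher after MSL2 RNAi. Isoforms share reads, so this does not repeat the measurement. The widest difference between isoforms was that of CG30340, at log2 ratios of 0.72 and 1.03, followed by the ETS transcription factor gene Ets21C, at 0.75 and 0.99.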

How the data were processed

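The mRNA libraries were made with an Illumina TruSeq mRNA kit protocol, per the labels. The submitters' processing notes name Bowtie and the dm3 build; the Bowtie version, counting tool, annotation release and strand setting are not stated in those notes or the labels. The authors' deposited counts are whole numbers of reads for each transcript, listed beside its length and the library total, and isoforms share reads. The deposited RPKM values equal count, length and library total combined in the usual way. The transcript with most reads stood for each of 15139 genes. Symbols and arms came from the Release 6 plus ISO1 MT annotation, whose build differs, so no coordinates are given; 13783 genes matched by locus tag, 749 by synonym and 607 not. The log2 ratio used a pseudocount of 0.1. The code for the rule was checked on simulated counts with counting error only and with genes raised 2-fold. That check says nothing about differences between cultures. Read ratios have exact Clopper-Pearson intervals and medians binomial order-statistic ones, both at 95%. With 1 library per group no count model was run.

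Members and lists were chosen with earlier results of these data known. Named are the 12 members of highest ratio, the 12 of at least 5 RPKM, the 8 most abundant, the extremes after CLAMP RNAi, those at the limits, and members sharing an annotation, groups formed after values were seen. Promoter motifs had been planned and were not used here. Some pathway genes are not reported here. Python 3.11.15, numpy 2.4.6, pandas 2.3.3 and scipy 1.17.1 were used.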

Additional observations from a re-analysis of the deposited data

How the results depend on the processing

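The selection depends on level filter and pseudocount. The members numbered 426 without a level filter, 47 at a mean of at least 5 RPKM, 92 with a pseudocount of 1 (81 of them among the 141) and 31 with a 2-fold rule; under the other alternatives they numbered 107 to 176, among them 149 with noncoding and unplaced genes included, an alternative chosen after seeing the data. The numbers at least 2-fold higher over control, 31 in the reported selection, were 82, 8 and 17 under the first 3 of these settings. The numbers at least 1.5-fold higher over CLAMP RNAi, 98 as reported, were 282, 32 and 59 under the same settings, and 29 with the 2-fold rule. The median log2 ratio of MSL2 RNAi over control was 0.71 at a mean of at least 5 RPKM and 1.29 with the 2-fold rule. That of CLAMP RNAi over control was 0.11 without a level filter and −0.0925 both with the 2-fold rule and with a CLAMP RNAi limit of 1.2-fold. That of MSL2 RNAi over CLAMP RNAi was 0.68, 1.55 and 0.89 in the same order. These follow from the altered selection itself. No member changed sign under the pseudocounts, the scalings or the longest transcript; with a pseudocount of 1, 60 of the 141 were below 1.5-fold, and 13 were when the autosomal median was set to 0. Upper-quartile scaling moved the autosomal median to 0.09 and gave 176 members. No paired analysis was possible because each mRNA group has 1 library. Leaving out a library was not possible for the same reason. Depth limits the 26 members with under 100 reads in control most.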
